A study of Mus musculus with 15 samples.

Results

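Immunoglobulin variable (V) segments are the gene segments that encode most of the antigen-binding part of an antibody. The segments described here were the rows of the gene count table whose mouse symbol begins with Ighv (heavy chain), Igkv (kappa light chain) or Iglv (lambda light chain) and whose counts, summed over all 15 libraries, reached 200. This rule kept 198 of 348 V rows, from 54838 genes in the table. They comprised 97 of 185 heavy, 98 of 160 kappa and all 3 lambda V rows, and are called members below. Of the 150 V rows under the minimum, 64 had no count at all, and these 150 rows held at most 1.23% of the V counts of any library. Just outside the minimum lay Ighv1-23 with 173 counts, Igkv2-116 with 184 and Ighv1-71 with 193. Just inside it lay Ighv5-1 with 204, Igkv7-33 with 218 and Ighv1-83 with 229. The rule used the summed counts of the same libraries, so that these segments were detected is not a result.

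A B cell makes its antibody by joining V segments to J segments (and D segments in the heavy chain) on the chromosome, and each mature B cell normally transcribes a single productive heavy chain and a single productive light chain. In a bulk RNA library, the counts on a V segment depend, among other things, on how many cells carry that segment and how much immunoglobulin RNA each holds. These 2 quantities cannot be told apart. Counts also depend on how reads are assigned to similar segments, and some fall on segments annotated as pseudogenes, as given below. Plasma cells, the antibody-secreting descendants of B cells, hold far more immunoglobulin RNA per cell than resting B cells do. Germinal centres (GC) are structures in which activated B cells divide, mutate their V regions and are selected for antigen binding.

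The libraries were made from splenic B cells of wild-type mice, males aged 3 months, which had been immunised with sheep red blood cells for 9 days. Each of 5 groups had 3 libraries, lettered A, B and C: naive B cells and GC B cells, both sorted after enrichment for the B cell surface protein B220, and naive B cells activated for 5 days in culture with anti-CD40 antibody (5 µg/ml, with mouse IL-4 at 80 ng/ml), with CpG oligonucleotide (2 µM) or with lipopolysaccharide (LPS, 25 µg/ml). Whether IL-4 accompanied CpG and LPS is not settled by the labels, nor which animals the letters stand for. The series design text gives 3 x 2 individual mice and does not say whether animals were pooled. No strain is named in the labels. Culture was in embryonic stem cell medium. Stimulus and letter were taken from the library titles as given, and p-values measure the spread between libraries, which may be technical.

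Libraries held 25397624 to 36272197 counts, of which 36337 to 481365 lay on member V segments. At this depth the 95% Wilson interval of a segment's share extended at most 1.048 percentage points to each side within heavy V, 0.348 within kappa V and 3.249 within lambda V. These intervals cover counting error only. The naive and GC libraries carried the markers of their labels. GC B cell markers summed to 2063 to 2323 CPM (normalised counts scaled to a common library size) in GC libraries and 71.4 to 129 CPM in naive ones, and follicular B cell markers to 6888 to 8577 CPM in naive and 312 to 442 CPM in GC libraries. In activated libraries GC B cell markers summed to 485 to 1090 CPM and follicular ones to 500 to 1443 CPM. T cell markers summed to at most 9.04 CPM in naive and 0.955 CPM in GC libraries.

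The 3 naive libraries differed from one another in their V segments, and counts of members called against naive cells are given with and without each of them. Library naive B had a count for 11523 genes, the fewest of the 15, and for 108 of the 198 members, whereas the other libraries detected 165 to 198 members. Erythroid markers, among them the globins Hbb-bs and Hba-a1, summed to 298 CPM in the highest naive library, which was naive B with 137 CPM of Hbb-bs and 126 CPM of Hba-a1. Their part in the V segment values was not tested. Library naive C had many members detected (193). The heavy V shares of naive C, and those of naive B, were far from those of every other library, as described below.

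Segments that are widely used or that differ between libraries are shown by their coding strand, from RNA sequences of GENCODE M21 on GRCm38. For 6 heavy segments and 3 kappa segments the stretch starts at the conserved cysteine codon of the first framework and runs past the conserved tryptophan codon. Capitals mark the bases between those 2 codons, which hold the first antigen-contacting loop. Ighv2-9 (chr12:113879227-113879325), Ighv5-6 (chr12:113625640-113625738) and Ighv9-3 (chr12:114140824-114140922) are among the most used: Ighv2-9 led in 10 libraries and Ighv5-6 in 3, and Ighv9-3 held 4.09% to 6.53% of heavy V counts in every library. Ighv1-26 (chr12:114788504-114788602), Ighv1-64 (chr12:115507677-115507775) and Ighv1-82 (chr12:115952670-115952768) had their highest shares in naive C. All 6 lie on the minus strand.
Ighv2-9: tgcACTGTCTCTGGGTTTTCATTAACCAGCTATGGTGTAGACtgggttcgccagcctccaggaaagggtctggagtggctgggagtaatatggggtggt
Ighv5-6: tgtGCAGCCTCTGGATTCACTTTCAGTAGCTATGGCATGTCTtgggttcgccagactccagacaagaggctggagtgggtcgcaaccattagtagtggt
Ighv9-3: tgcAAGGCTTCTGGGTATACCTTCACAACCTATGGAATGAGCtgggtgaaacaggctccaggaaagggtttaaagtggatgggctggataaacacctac
Ighv1-26: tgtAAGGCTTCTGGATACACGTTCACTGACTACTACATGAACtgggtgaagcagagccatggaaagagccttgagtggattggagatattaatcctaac
Ighv1-64: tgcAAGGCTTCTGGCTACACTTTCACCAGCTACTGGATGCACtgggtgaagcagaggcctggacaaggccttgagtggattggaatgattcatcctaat
Ighv1-82: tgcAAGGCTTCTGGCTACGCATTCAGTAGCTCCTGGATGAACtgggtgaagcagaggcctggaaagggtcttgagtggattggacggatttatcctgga

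Among kappa segments, Igkv1-110 (chr6:68271032-68271139, plus strand) and Igkv1-117 (chr6:68121592-68121699, plus strand) were the leading pair in GC libraries, and Igkv10-96 (chr6:68632091-68632183, minus strand) led in naive A and naive C and in the activated libraries lettered A and B. Igkv1-110 and Igkv1-117 differ at 10 of 359 coding bases (97.21% identity).
Igkv1-110: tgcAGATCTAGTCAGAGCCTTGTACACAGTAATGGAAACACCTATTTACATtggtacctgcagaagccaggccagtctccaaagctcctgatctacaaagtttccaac
Igkv1-117: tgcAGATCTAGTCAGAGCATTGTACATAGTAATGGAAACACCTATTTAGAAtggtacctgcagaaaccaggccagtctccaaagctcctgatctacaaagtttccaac
Igkv10-96: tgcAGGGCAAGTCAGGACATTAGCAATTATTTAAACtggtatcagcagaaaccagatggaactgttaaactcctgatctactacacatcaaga

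Similarity of this kind limits how well reads can be assigned. Of the 198 members, 72 shared at least 1 stretch of 100 identical bases with another V row, 27 of them heavy, 43 kappa and 2 lambda, and in 2 (Igkv6-20 and Igkv6-29) more than 50% of such stretches were shared. How reads that fit several segments were counted is not given in the sources used here, so the split of counts between near-identical segments is uncertain. The lambda segments Iglv1 (chr16:19085017-19085316) and Iglv2 (chr16:19260401-19260700), both on the minus strand, differ at 11 of 351 coding bases (96.87% identity). Their last 300 coding bases are shown with the 8 differing bases of that stretch in capitals. The split of counts between Iglv1 and Iglv2 depends on such bases.
Iglv1: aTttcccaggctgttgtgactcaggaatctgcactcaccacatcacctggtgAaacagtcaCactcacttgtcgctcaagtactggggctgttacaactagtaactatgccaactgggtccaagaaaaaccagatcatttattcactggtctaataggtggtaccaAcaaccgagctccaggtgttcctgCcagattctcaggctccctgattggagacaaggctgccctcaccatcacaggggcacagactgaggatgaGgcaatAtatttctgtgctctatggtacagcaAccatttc
Iglv2: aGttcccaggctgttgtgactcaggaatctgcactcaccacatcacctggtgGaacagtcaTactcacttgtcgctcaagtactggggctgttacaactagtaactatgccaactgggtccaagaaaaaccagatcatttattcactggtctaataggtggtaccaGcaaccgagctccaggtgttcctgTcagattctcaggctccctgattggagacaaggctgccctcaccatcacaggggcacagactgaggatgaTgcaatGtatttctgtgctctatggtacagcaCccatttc

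Shares of the Ighv1 and Ighv2 families spanned a narrower range over the 12 GC and activated libraries than over the 3 naive ones. The Ighv1 family, the largest heavy family with 47 members, held 58.3% of heavy V counts in naive C, 31.5% in naive A and 12.4% in naive B, and between 24.6% and 28.6% in the other 12 libraries. The Ighv2 family, with 8 members, held 6.54% in naive C, 17.6% in naive A and 36.2% in naive B, and 18.9% to 25.5% in the other 12. Naive C was thus the highest library for Ighv1 and the lowest for Ighv2, and naive B the reverse.

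**Figure D1:**
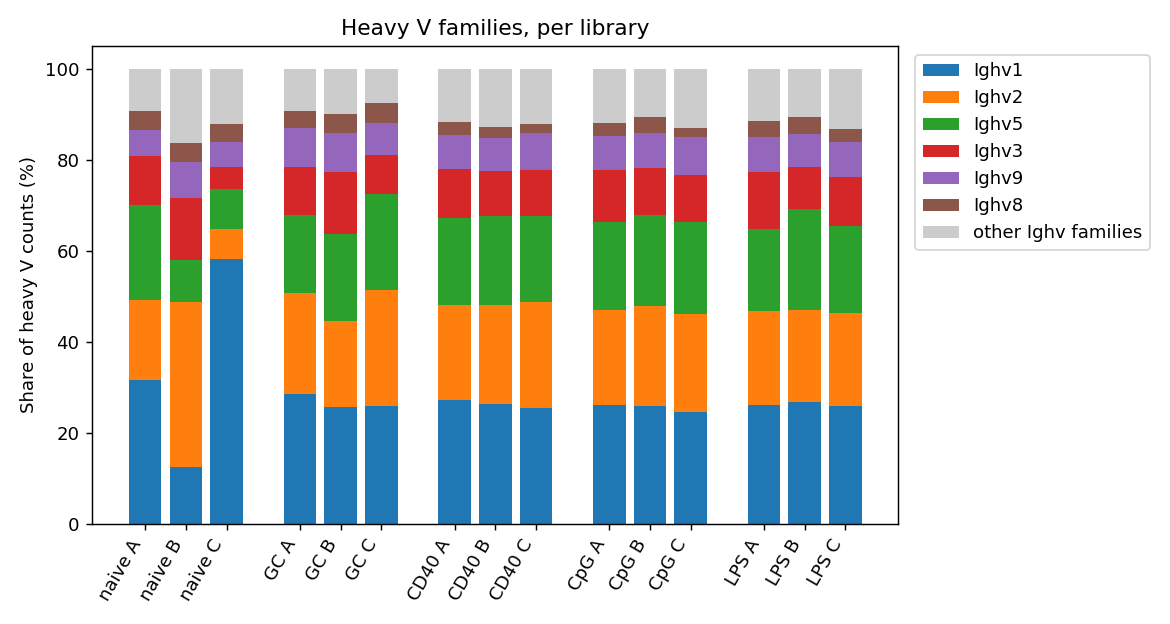
Share of heavy V counts (%) held by the 6 most used Ighv families in each of the 15 libraries, with the other families in grey. The Ighv1 share was 58.3% in naive C and 24.6% to 28.6% in the 12 GC and activated libraries.

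The same libraries separated by position in the locus. Heavy V segments lie in a row on chromosome 12, and members were split by position into 49 nearer to the J segments (chromosome 12, 113572927 to 114538965) and 48 farther from them (114564578 to 116010093). The J-distal members held 58.8% of heavy V counts in naive C, 32.6% in naive A and 13.1% in naive B. In GC libraries they held 23.9% to 25.2%, and in activated libraries 21.2% to 24.6%.

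**Figure D2:**
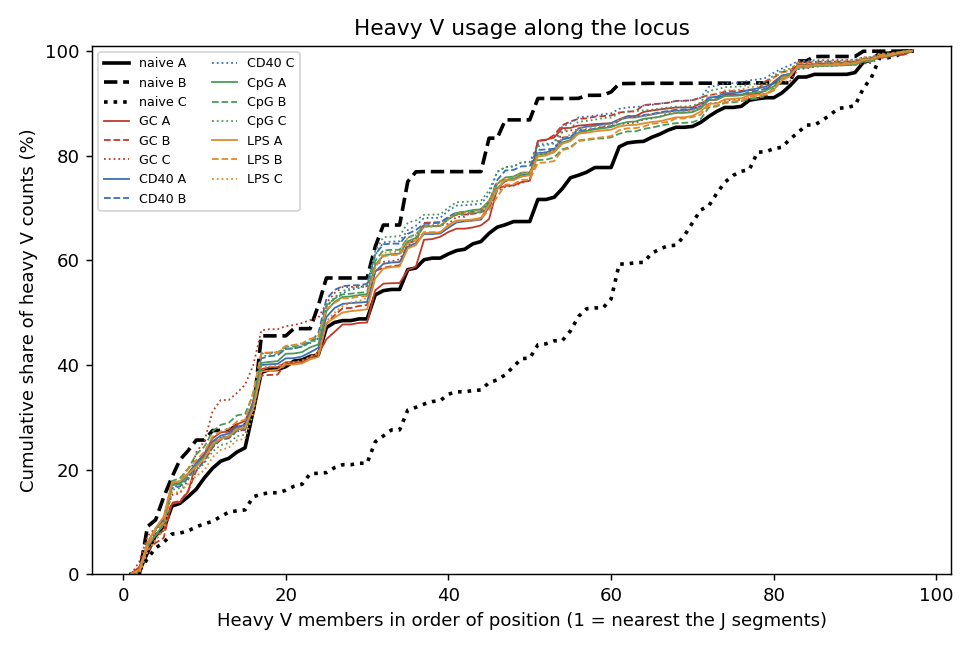
Cumulative share of heavy V counts (%) over the 97 heavy members ordered by position, starting nearest the J segments; colours are groups, and solid, dashed and dotted lines are letters A, B and C. Past the first few members, and up to the last few, the dotted black line of naive C runs below all others, and the dashed black line of naive B above most of them over the middle of the locus.

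In naive C, 34 of the 97 heavy members had a higher share than in any of the 12 GC and activated libraries, and 27 of these belonged to Ighv1. Together they held 59.6% of heavy V counts in naive C, 21.7% in naive A, 5.29% in naive B, and 7.52% to 11.4% in the 12 other libraries. A further 32 heavy members had a lower share in naive C than in all 12. By the same count, naive A had 28 heavy members above and 22 below all 12, and naive B had 17 above and 53 below. The members were selected by these shares, so the sums and counts describe the libraries and carry no test.

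Among the segments high in naive C, Ighv1-26 stood at 6.70% of heavy V counts there, 3.96% in naive A, 1.59% in naive B and 0.417% to 1.15% in the 12 GC and activated libraries. Ighv1-64 stood at 3.33% in naive C, 0.279% in naive A, no count in naive B and at most 0.24% in the 12. Ighv1-82 stood at 3.74% in naive C, 1.30% in naive A, 0.023% in naive B and at most 1.00% in the 12. Each of these 3 was highest in naive C. Ighv1-50 had 1.80% in naive C, no count in naive A or naive B, and at most 0.0517% in the 12. Ighv1-72 likewise had 1.42% in naive C, no count in the other naive libraries, and at most 0.185% in the 12.

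The segments low in naive C included leading segments of other libraries. Ighv2-9, the leading heavy segment in 10 libraries, held 0.513% of heavy V counts in naive C, 7.37% in naive A, 14.5% in naive B, and 6.24% to 9.48% in the 12 GC and activated libraries. Ighv3-2 held 0.124% in naive C, 5.25% in naive A, 5.27% in naive B and 2.89% to 6.56% in the 12. The naive C value lay below the range of all other libraries for both.

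Ighv3-2 is annotated as a pseudogene in GENCODE M21, a segment whose reference sequence cannot encode a full V region. Its transcript of 349 bases aligned to the 350 coding bases of its functional relative Ighv3-6 with 29 mismatches and 1 missing base, after base 216, at 91.43% identity. Stretches from the cysteine codon are shown for Ighv3-2 (chr12:114033915-114034034) and Ighv3-6 (chr12:114288265-114288384), both on the minus strand, with bases that have no identical partner in the alignment in capitals.
Ighv3-2: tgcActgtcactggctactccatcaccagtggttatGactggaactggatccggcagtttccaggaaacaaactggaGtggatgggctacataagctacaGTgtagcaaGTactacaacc
Ighv3-6: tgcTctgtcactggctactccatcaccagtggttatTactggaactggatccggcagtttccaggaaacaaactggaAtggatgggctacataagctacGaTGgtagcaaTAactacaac

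In the summed share of heavy members annotated as pseudogenes, which include Ighv3-2, only naive C stood apart. The 12 heavy members annotated as pseudogenes held 0.495% of heavy V counts in naive C. They held 8.92% in naive A and 10.6% in naive B, 7.32%, 9.88% and 8.34% in GC A, B and C, and 9.25% to 12.5% in the 9 activated libraries, so naive C lay below all other libraries in this sum. After Ighv3-2, Ighv1-14 was the most used of them, with 1.65% in naive A, no count in naive B, 0.0371% in naive C and 1.55% to 3.34% in the 12 GC and activated libraries. The 3 kappa pseudogene members held at most 0.667% of kappa V counts in any library.

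In kappa usage naive C lay nearer to the activated libraries. The overlap of 2 libraries (the sum over segments of the smaller of their shares, 100% for identical usage) between naive C and the 9 activated libraries was 46.0% to 50.6% for heavy V and 81.9% to 88.3% for kappa V. Naive A overlapped the activated libraries by 72.5% to 77.0% in heavy V and 81.6% to 87.7% in kappa V. Naive B overlapped them by 55.2% to 57.8% in heavy V and 76.8% to 79.8% in kappa V. Between naive A and naive C the overlap was 58.0% for heavy and 85.2% for kappa V, between naive A and naive B 53.6% and 76.2%, and between naive B and naive C 32.2% and 77.2%.

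Leading heavy segments were also compared across groups by share. Ighv5-6 held 5.01%, 6.71% and 4.99% of heavy V counts in GC A, B and C and 6.52% to 7.96% in the activated libraries, against 4.34%, 3.77% and 1.57% in naive A, B and C. All activated libraries lay above all naive ones. Ighv9-3 held 4.58%, 5.98% and 4.09% in naive A, B and C, 6.16%, 6.53% and 4.25% in GC libraries and 5.55% to 6.44% in activated ones, which overlap. Ighv1-9 held 7.62%, 6.51% and 5.39% in GC A, B and C, and at most 4.22% in any naive or activated library. Ighv2-5 held 5.51%, 3.89% and 5.27% in GC libraries and at most 2.72% elsewhere. In normalised counts neither passed the test in GC against naive cells, at log2 fold changes of 0.59 ± 1.06 (SE, edgeR adjusted p = 0.72) and 1.62 ± 0.93 (edgeR adjusted p = 0.202).

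For GC against naive cells, edgeR called 2 members higher and 1 lower of 197 tested, where 34.5% of all genes tested were called in either direction. The median log2 fold change of the members was -0.01 and that of all genes tested 0.00. By class the medians were -0.59 for heavy, 0.20 for kappa and -0.60 for lambda members. All 3 called members were rare heavy segments. Ighv1-86, a pseudogene by annotation, had no count in any naive library and 1.72, 2.62 and 0.659 CPM in GC A, B and C, at least 52.6-fold higher against a floor of 3 counts over the naive libraries (edgeR adjusted p = 0.00424, from 1.4e-05 to 0.151 over its alternatives). Ighv1-37 had 0.44 CPM in naive A, no count in naive B and 0.139 CPM in naive C, and 2.10, 4.99 and 1.32 CPM in GC A, B and C (log2 fold change 3.81 ± 1.33, edgeR adjusted p = 0.0382, from 0.00326 to 0.292). Ighv1-19 had 2.64, 0.85 and 8.29 CPM in the naive libraries A, B and C, and 0.287, 0.273 and 0 CPM in GC A, B and C (log2 fold change -4.36 ± 1.44, edgeR adjusted p = 0.0298, from 0.00141 to 0.329). For each of the 3, the groups did not overlap.

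These calls depended on which naive libraries entered. Without naive A, 3 members were called higher and 3 lower in GC cells, where 30.3% of all genes tested were called. Without naive C, 17 members were called higher and 0 lower in GC cells, 13 of them kappa segments, where 37.1% of all genes tested were called. Without naive B, 1 was higher and 12 were lower, and all 12 were heavy segments among the 34 that stood high in naive C (36.7% of all genes tested were called), such as Ighv1-26 (log2 fold change -3.97), Ighv1-64 (-5.08) and Ighv1-81 (-4.23). DESeq2, which gave a p-value for 17016 genes, called 7 higher and 13 lower, where it called 40.1% of those genes. All 13 were again among those 34. The 34 were chosen for a naive C share above that of every GC and activated library. Both overlaps were thus largely built in and support nothing.

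Kappa usage in GC cells was led by another segment than in naive and activated cells. Igkv1-110 held 11.4%, 10.2% and 11% of kappa V counts in GC A, B and C. It held 4.46%, 6.57% and 3.18% in naive A, B and C and 3.04% to 5.82% in the 9 activated libraries, so the GC libraries lay above all others. Igkv1-117, its near copy, held 10.1%, 9.58% and 7.55% in GC libraries, 5.06%, 8.88% and 4.47% in naive A, B and C, and 4.67% to 6.19% in activated ones. The GC and naive ranges of Igkv1-117 overlapped through naive B. The Igkv1 family of 8 members held 28.0%, 24.5% and 23.5% in GC A, B and C, 12.9%, 23.3% and 13.2% in naive A, B and C and 13.1% to 18% in activated libraries.

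**Figure D3:**
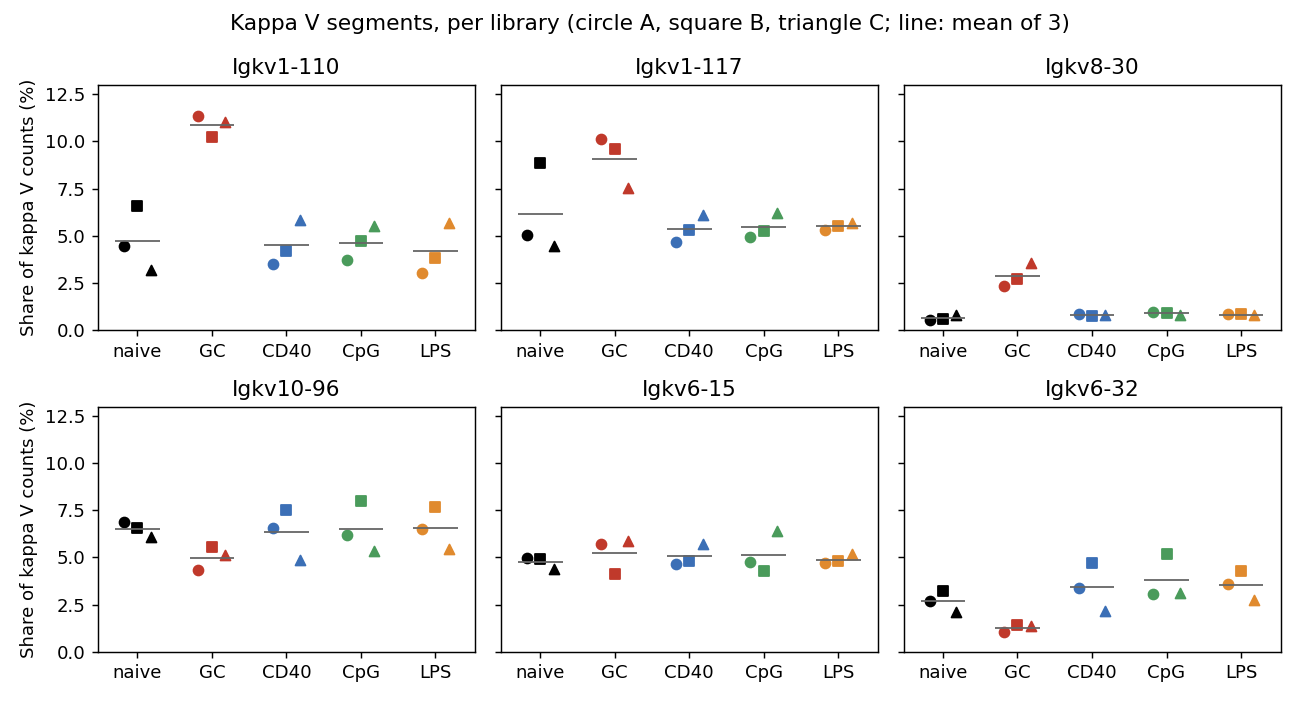
Share of kappa V counts (%) of 6 kappa segments in every library, grouped by cell state; circles, squares and triangles are letters A, B and C, and grey lines are means of 3 libraries. Igkv1-110 and Igkv8-30 lay above all other libraries in the 3 GC libraries.

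A smaller segment, Igkv8-30, held 2.31%, 2.72% and 3.54% of kappa V counts in GC A, B and C, 0.527% to 0.817% in naive libraries and 0.724% to 0.951% in activated ones. Igkv6-32 went the other way, with 1.04%, 1.42% and 1.36% in GC libraries, 2.71%, 3.22% and 2.11% in naive A, B and C and 2.13% to 5.17% in activated ones. In both the GC libraries did not overlap the others. In normalised counts no kappa member passed the test in GC against naive cells. Igkv8-30 came nearest, at 38.7, 54.2 and 36.4 CPM in GC A, B and C against 6.38 (A), 6.05 (B) and 13.3 CPM (C) in naive libraries (log2 fold change 2.33 ± 0.90, edgeR adjusted p = 0.0638, from 0.00261 to 0.177 over its alternatives). For Igkv1-110 the log2 fold change was 1.57 ± 1.07 (edgeR adjusted p = 0.289).

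The share of the leading kappa segment was 10.9% ± 0.585 (SD, n = 3) in GC and 7.28% ± 1.45 in naive libraries, and every GC library exceeded every naive one (two-sided exact permutation p = 0.1, the smallest that 3 against 3 can give, 0.353 after Benjamini-Hochberg adjustment over 60 tests of 6 measures in 10 comparisons). None of those 60 tests could pass 0.05. Evenness was measured as the effective number of segments, the exponential of the Shannon entropy of the shares, which is the number of equally used segments that would give the same entropy. For kappa it was 43.4, 45.8 and 45.0 in GC A, B and C, 50.9, 41.1 and 57.4 in naive A, B and C, and 47.3 to 52.1 in activated libraries. GC libraries lay below all activated ones and overlapped the naive range through naive B. For heavy V it was 42.0, 43.0 and 44.6 in GC A, B and C, 47.8, 20.5 and 57.9 in naive A, B and C, and 41.5 to 46.4 in activated libraries. The naive libraries spanned a wider range than all others together, from naive B with 39 of 97 heavy members detected to naive C.

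Lambda chains are the minor light chains of the mouse, and all 3 lambda V rows were members. The lambda share of light V counts was 9.51%, 7.90% and 9.90% in naive A, B and C and 7.29%, 9.39% and 10.5% in GC libraries. Within lambda, Iglv1 held 41.5%, 57.9% and 41.3% in naive A, B and C, 60.4%, 81.4% and 72.2% in GC A, B and C and 63.2% to 71.2% in activated libraries. Both GC and activated libraries lay above all naive ones. Iglv3 was correspondingly 51.4%, 36.1% and 48.5% in naive A, B and C, and 16.5% to 33.7% in the other libraries. Iglv2 stayed between 2.01% and 13.1% in all 15 libraries. In normalised counts none of the 3 was called in GC or any activated group against naive cells (edgeR adjusted p from 0.225 to 0.957).

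The level of V segments as a whole, their share of all counts, was 0.192%, 0.111% and 0.242% in naive A, B and C and 0.207%, 0.269% and 0.144% in GC A, B and C. These ranges overlap (two-sided exact permutation p = 0.7, adjusted 0.955). In activated cells it depended on the letter. It was 0.287%, 0.289% and 0.254% in the A libraries of CD40, CpG and LPS, 0.153%, 0.153% and 0.157% in the B libraries, and 1.30%, 1.45% and 0.929% in the C libraries.

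**Figure D4:**
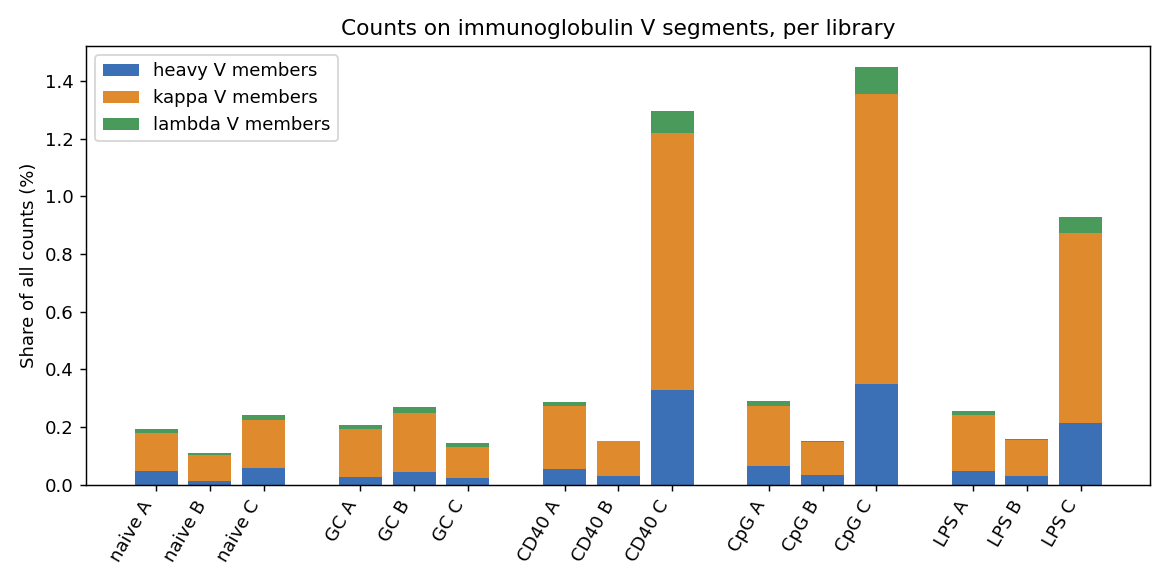
Share of all counts (%) on heavy, kappa and lambda V members, stacked, in each of the 15 libraries. The activated C libraries reached 0.929% to 1.45%, and no other library exceeded 0.289%.

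Against naive cells, edgeR called 8 members higher and 0 lower of 197 tested with anti-CD40, where 34.1% of all genes tested were called and 19.8% were called higher. With CpG 13 were higher and 0 lower (33.6% of all genes, 19.7% higher), and with LPS 5 were higher and 0 lower (33.7% of all genes, 19.5% higher). The members' shares called, 4.06%, 6.60% and 2.54%, were below those of all genes. Their median log2 fold changes were 1.59, 1.63 and 1.25, against 0.17, 0.18 and 0.18 for all genes tested. Without the C library of the activated group these medians were 0.34, 0.37 and 0.23, against 0.21, 0.21 and 0.20 for all genes, and without naive C they were 2.11, 2.19 and 1.74, against 0.39, 0.41 and 0.41. The 3 comparisons share the naive libraries, and each activated group mixes the letters, whose V levels differ as given above.

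The called segments were heavy ones except for 1 kappa segment with CpG. Those with the highest fold changes had at most 2 counts over the 3 naive libraries, and several are pseudogenes by annotation. Ighv12-1, Ighv12-2, Ighv1-86, Ighv1-21 and Ighv7-2 reached the minimum of 200 counts only through the activated libraries, so a difference from naive cells was built into their choice, and their values are a description that supports nothing. Such members were 5 of the 8 called with CD40, 6 of 13 with CpG and 4 of 5 with LPS. Ighv12-1, a pseudogene, had no naive count and 0.931, 0.478 and 22.7 CPM in CD40 A, B and C, 0.577, 0.37 and 19.2 CPM in CpG A, B and C, and 1.12, 0 and 14.6 CPM in LPS A, B and C. It was at least 254-fold higher with CD40 (edgeR adjusted p = 0.0456) and at least 212-fold with CpG (edgeR adjusted p = 0.0498), and was not called with LPS (edgeR adjusted p = 0.0554). These p-values reached 0.122, 0.151 and 0.155 over their alternatives. The C libraries stood at 14.6 to 22.7 CPM and the A and B libraries at 0 to 1.12 CPM. Ighv12-2, also a pseudogene, had no naive count and 0.243 to 15 CPM in the 9 activated libraries, at least 153-fold higher with CD40 and with LPS and at least 175-fold with CpG (edgeR adjusted p = 0.0128 with CD40, 0.0127 with LPS and 0.012 with CpG, reaching 0.096, 0.06 and 0.0813 over their alternatives).

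Against the same floor, Ighv1-86 was at least 30.9-fold higher with CD40, at least 47.6-fold with CpG and at least 23.2-fold with LPS (edgeR adjusted p = 0.00729, 0.00506 and 0.00927, at most 0.0288 under any alternative). Ighv1-21, a pseudogene with 2 counts over the naive libraries, was higher by a ratio of 186 with CD40 (95% exact Poisson counting interval 51.5 to 1536), 203 with CpG (56.3 to 1680) and 114 with LPS (31.5 to 940). It stood at 0, 0.034 and 0.0347 CPM in the naive libraries, 1.33, 0.86 and 9.60 CPM in CD40 A, B and C, 1.29, 0.185 and 11.4 CPM in CpG A, B and C, and 0.858, 0.649 and 5.71 CPM in LPS A, B and C, highest in the C library of each. Its edgeR adjusted p-values were 0.00656, 0.00608 and 0.0105, reaching 0.099, 0.0347 and 0.132 over their alternatives. Ighv7-2, with 1 naive count, was also called in all 3 groups, with ratios of 154 (27.7 to 6086), 216 (38.7 to 8513) and 82.9 (14.9 to 3273), at edgeR adjusted p = 0.0194, 0.0146 and 0.0339, reaching 0.141, 0.0668 and 0.103 over their alternatives. Ighv1-4 had 5.30, 0 and 2.88 CPM in the naive libraries A, B and C and 7.38 to 142 CPM in the activated libraries, without overlap. It was called with CD40 (log2 fold change 4.40 ± 1.54, edgeR adjusted p = 0.044, to 0.202 over its alternatives) and CpG (4.25 ± 1.53, edgeR adjusted p = 0.0497, to 0.228), and stood at 3.58 ± 1.49 with LPS (edgeR adjusted p = 0.0834). Igkv6-32, the only kappa member called, had 32.3 to 34.2 CPM in naive libraries and 61.8, 62.9 and 323 CPM in CpG A, B and C (log2 fold change 2.17 ± 0.71, edgeR adjusted p = 0.0327, to 0.209).

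Counts of called members moved with single libraries. Without naive C, 24, 30 and 27 members were higher with CD40, CpG and LPS, where 36.5%, 36.3% and 36.7% of all genes tested were called in either direction. Without naive B the counts were 4, 3 and 2 (35.7%, 34.9% and 35.5% of all genes). Without naive A they were 7, 8 and 7 (28.7%, 28.2% and 29.0% of all genes). With the C library of the activated group left out, 3 were called with CD40, 3 with CpG and 3 with LPS (27.1%, 25.2% and 25.8% of all genes). DESeq2 called 41, 42 and 18 members higher, where it called 40.3%, 39.7% and 40.5% of all genes in either direction and 24.0% higher in each comparison. With the letter as an additive term in 15 libraries, 17, 22 and 12 members were called higher. Of all genes, 36.0%, 35.5% and 35.7% were then called in either direction and 20.8%, 20.7% and 20.6% higher.

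Between stimuli, edgeR without a block called 0 members and 0.0% of all genes in each of CD40 against CpG, CD40 against LPS and CpG against LPS. DESeq2 likewise called 0 members, and 0 members reached an unadjusted p under 0.05 in edgeR. Letters paired the activated libraries, and in a fit of the 9 activated libraries blocked by letter the calls changed. CD40 against LPS then had 6 members higher and 0 lower, where 0.28% of all genes were called, and CpG against LPS 9 higher and 0 lower, where 0.286% were called. CD40 against CpG had 0, where 0.172% were called, with 24 members at an unadjusted p under 0.05. The 6 were Ighv1-4, Ighv2-2, Ighv2-5, Ighv3-2, Ighv4-2 and Iglv2. The 9 were Ighv1-4, Ighv1-54, Ighv14-3, Ighv2-5, Ighv2-9, Ighv3-2, Ighv5-6, Ighv9-3 and Igkv1-110. Their sizes were moderate: Ighv2-5 was higher by 0.91 on the log2 scale in CpG than in LPS (edgeR adjusted p = 0.000634 with the block), and Ighv1-4 by 0.73 in CD40 than in LPS (edgeR adjusted p = 0.000426 with the block). In the V share of all counts the libraries titled LPS were lowest within letters A and C and highest within B.

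Between letters, nearly all V segments moved together. In the 9 activated libraries, with stimulus as a term, A exceeded B in 122 of 195 members and was below it in 0 (31.1% of all genes tested were called), 171 were lower and 0 higher in A than in C (23.4% of all genes), and 185 were lower and 0 higher in B than in C (34.8% of all genes). Median log2 fold changes of the members were 0.85, -2.09 and -3.05, against 0.01, 0.02 and 0.02 for all genes tested. Libraries with the same letter may share their source cells, so these p-values measure a spread that may not be between independent samples.

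**Figure D5:**
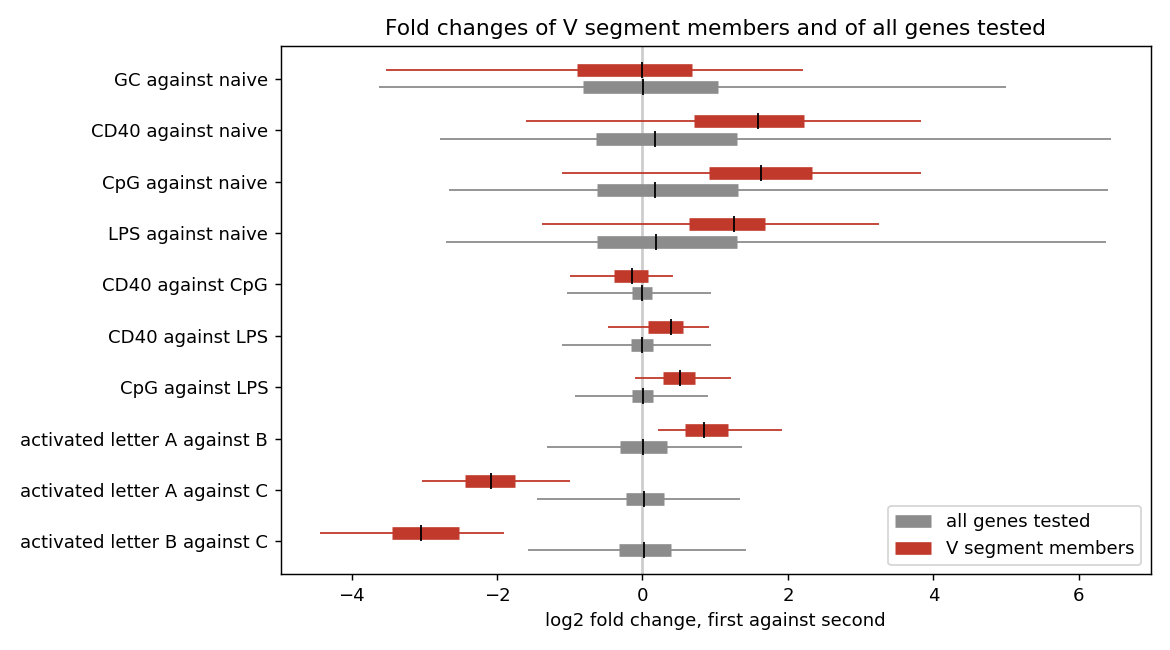
Log2 fold changes (first against second) of V segment members (red) and of all genes tested (grey) in 10 comparisons; thick bars span the 25th to 75th percentile, thin lines the 5th to 95th, and black ticks mark medians. Member medians were 0.85, -2.09 and -3.05 in the letter comparisons A against B, A against C and B against C.

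Abundant segments such as Ighv2-9 and Igkv1-110 showed the letter difference. Ighv2-9 had 39.4, 54.5 and 32.1 CPM in CD40 A, CpG A and LPS A, 25.4, 26.3 and 22.2 CPM in the B libraries, and 314, 334 and 191 CPM in the C libraries. Every C library was above every A library, and every A library above every B library (log2 fold change A against B 0.74 ± 0.10, edgeR adjusted p = 3.01e-06; A against C -2.73 ± 0.10, edgeR adjusted p = 1.49e-15). Igkv1-110 had 74.8, 74.6 and 57.8 CPM in A, 51.1, 57.2 and 49.5 CPM in B and 523, 571 and 376 CPM in C. It was lower in B than in C by -3.20 ± 0.08 (log2, edgeR adjusted p = 2.4e-20). For A against C the lowest fold changes were those of Ighv12-1 and Ighv12-2, at -4.40 ± 0.36 and -3.91 ± 0.34 (log2). Both reached the minimum of 200 counts only through the activated C libraries, so these values are a description. Such members were 8 of the 171 lower in A than in C and 14 of the 185 lower in B.

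Lambda separated letter B from the rest. The lambda share of light V counts was 6.42%, 7.36% and 6.67% in CD40 A, CpG A and LPS A, 2.39%, 2.76% and 2.47% in the B libraries, and 7.90%, 8.52% and 7.81% in the C libraries. The letters did not overlap (two-sided exact permutation p = 0.1 in each pair, adjusted 0.353). Iglv1 was higher in A than in B by 2.19 ± 0.10 and Iglv3 by 2.35 ± 0.23 (log2, edgeR adjusted p = 5.83e-13 and 0.000172), where the median of all members was 0.85. The constant genes went with them: Iglc1 was higher in A than in B by 2.43 ± 0.16 and Iglc3 by 1.87 ± 0.11 (edgeR adjusted p = 1.81e-05 and 1.09e-12), whereas the kappa constant gene Igkc was higher by 0.59 ± 0.16 (edgeR adjusted p = 0.0369).

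Segment usage within a class also followed the letter more than the stimulus. Among activated libraries, kappa usage overlapped by 92.8% to 94.9% between libraries of the same letter and by 83.6% to 91.2% between those of the same stimulus, and each of the 9 had its highest overlap with a library of its own letter. For heavy V the ranges were 89.2% to 94.4% and 87.4% to 91.6%, and 8 of 9 had their highest overlap within the letter. Kappa leaders changed with the letter: Igkv10-96 led all A and B libraries, with 6.19% to 6.57% and 7.53% to 8.0%, and held 4.89% to 5.47% in C libraries, where Igkv1-117 led with CD40 and LPS and Igkv6-15 with CpG. GC libraries overlapped one another by 85.5% to 88.0% in kappa and 77.9% to 84.1% in heavy V, and the activated libraries by 71.2% to 79.6% and 72.0% to 81.9%.

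V counts were also set against the constant genes of the same chain. Heavy V members had 5.25, 1.62 and 5.41 counts per 100 heavy constant counts in naive A, B and C, 2.73 to 4.63 in GC libraries, 4.20 to 5.83 in activated A and B libraries and 7.98 to 8.39 in activated C libraries. Lambda V members had 63.8 to 76.8 counts per 100 lambda constant counts in activated C libraries and 15.7 to 41.3 in all others. Kappa V members had 20.5 to 31.0 per 100 Igkc counts in GC libraries and 28.3 to 49.5 elsewhere. Lengths differ between V and constant genes, so these ratios compare libraries and not genes.

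Other genes of the pathway were described from lists, and their counts stand against 34.5% of all genes tested called in GC against naive cells and 34.8% in B against C. Of 12 immunoglobulin constant genes, GC cells had 5 higher and 1 lower against naive cells, among them the switched isotypes Ighg1 (5.18 ± 0.92 log2, edgeR adjusted p = 0.000835) and Ighg2c (7.93 ± 1.68, edgeR adjusted p = 0.00285), while Ighd, which resting B cells carry with Ighm, was lower (-6.59 ± 0.38, edgeR adjusted p = 1.39e-08). Between letters B and C, 10 of 12 were lower and 1 higher in B, with a median of -2.44. Igkc had 4721, 4512 and 4834 CPM in the A libraries of CD40, CpG and LPS, 3131, 3069 and 3132 CPM in B and 18821, 22408 and 13373 CPM in C. Of 12 J segments, 11 were tested, and 0 were called in GC or any activated group against naive cells, while 10 were lower in B than in C. Of 7 genes of recombination and the surrogate light chain, 3 passed the low-count filter and 1 was higher in GC cells, Vpreb3 (0.84 ± 0.23 log2, edgeR adjusted p = 0.00993). The recombinase gene Rag2 had no count in any library, and Rag1 had at most 0.53 CPM.

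Of 12 transcription factors of immunoglobulin promoters and enhancers, 4 rose and 3 fell in GC relative to naive cells, where 34.5% of all genes tested were called. Pou2af1, a coactivator at immunoglobulin promoters, was higher (2.16 ± 0.26 log2, edgeR adjusted p = 1.4e-05), and Irf4 was lower (-2.75 ± 0.19, edgeR adjusted p = 5.48e-08). Between letters B and C, 2 were higher and 3 lower in B, where 34.8% of all genes tested were called. Of 8 receptor partners and secretion genes, 6 were lower and 1 higher in B than in C. Jchain, which joins antibody units in secreted IgM and IgA, had 86.6, 114 and 69.3 CPM in the A libraries of CD40, CpG and LPS, 17, 19 and 17.8 CPM in B and 2132, 2844 and 1538 CPM in C. Prdm1, a regulator of plasma cell differentiation, had 8.31 to 11.6 CPM in A, 2.83 to 4.75 CPM in B and 58.1 to 78.5 CPM in C.

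Summed markers of other B cell states differed between the letters. All 6 plasma cell markers were in the table. Their sum was 2467 to 2617 CPM in activated A, 1708 to 1807 CPM in B and 4437 to 6200 CPM in C libraries, against 289 to 315 CPM in naive and 1884 to 2361 CPM in GC libraries. Tnfrsf17 had no count in the A and B libraries and at most 0.50 CPM in the C libraries. Of 5 tested, 4 were lower in A than in C and 5 lower in B than in C, where 11.5% and 17.5% of all genes tested were lower. The 6 marginal zone and B-1 B cell markers, all in the table and none at 0 in any letter, summed to 63.9 to 76.3 CPM in A, 114 to 127 CPM in B and 181 to 212 CPM in C. Follicular markers summed to 1379 to 1443 CPM in A, 587 to 648 CPM in B and 500 to 537 CPM in C. The part of these cell states in the V segment levels was not tested.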

How the data were processed

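The data are raw read counts per gene in 15 libraries, deposited as 1 table by the authors. STAR 2.7.10a, featureCounts 2.0.6, DESeq2 and the mm10 (GRCm38) build are named in the submitters' processing notes, without their settings. Poly(A)-selected directional libraries were sequenced on a NovaSeq 6000, per the series design text. Strand setting, treatment of reads that fit several genes, and annotation release are not given in the sources used here. Reads carried no molecular identifiers.

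Symbols, biotypes, coordinates and sequences came from GENCODE M21 (GRCm38), which named 54809 of 54838 gene IDs. Shares were computed from raw counts within heavy, kappa or lambda V members. CPM used TMM library sizes. Calls came from edgeR 4.0.16 (quasi-likelihood, robust, filterByExpr, R 4.3.3) on all 15 libraries with group means, Benjamini-Hochberg adjusted p under 0.05 over 17144 genes. Letter contrasts used the 9 activated libraries with letter and stimulus (15727 genes). SE is the log2 fold change divided by the square root of F, an approximation. The 60 tests of summary measures were two-sided exact permutation tests (scipy 1.17.1). DESeq2 1.42.0 and other settings were alternatives. The scripts were tested on simulated data.

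Letters were checked for pairing by correlating deviations from group means over genes. Activated libraries of the same letter correlated at 0.362 to 0.495 in every pair, so letters were taken to pair them. This comes from the data, since the labels do not say what letters stand for. Correlations that involved naive or GC libraries were -0.0696 to 0.0752, so letters were not taken to pair those.

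Members and gene lists were chosen with earlier results of these data known. Named segments were the 5 heavy and 5 kappa members with the highest mean share in naive, GC and activated libraries, the leading member of each library, all lambda members, up to 6 called members with the highest and 6 with the lowest fold change in each comparison with naive cells where groups did not overlap, the 5 heavy and 5 kappa members whose highest share most exceeded their median, and the 3 highest and 3 lowest called members of each letter contrast. Other segments named in the text, among them Ighv1-14, Ighv1-50, Ighv1-64, Ighv1-72, Ighv1-81 and Ighv1-82 and those called under single settings, were named after their values were seen. Recombination signals and promoters were not analysed here, and 1 of the gene lists is not reported here.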

Additional observations from a re-analysis of the deposited data

How the results depend on the processing

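In the letter comparisons, counts of called members stayed within 1.5 times under all settings run, except that 1 member was called higher in A than in C when every V row with a count was used. The comparisons with naive cells did not. Members called higher in GC cells (2) numbered 12 with a replicate block in 15 libraries, 7 by DESeq2 and 5 in the 6 libraries compared (36.2%, 40.1% and 28.4% of all genes called in either direction, against 34.5%). Members called lower (1) numbered 2 with every V row, 13 by DESeq2 and 0 with the block in 6 libraries (34.5%, 40.1% and 20.5% of all genes called in either direction). For CD40 (8 higher) the counts were 17 with the block in 15 libraries, 41 by DESeq2, 4 in 6 libraries and 5 with the block in 6 libraries. Of all genes, 36.0%, 40.3%, 20.6% and 14.8% were called in either direction under these settings, against 34.1%. For CpG (13 higher) the members called numbered 22, 42, 2 and 3 under the same settings, and 6 without a low-count filter. The shares of all genes were 35.5%, 39.7%, 21.5% and 14.9%, and 18.4% without the filter, against 33.6%. For LPS (5 higher) the members called numbered 12, 18, 3 and 10, with 1 lower under the block in 15 libraries. The shares of all genes were 35.7%, 40.5%, 22.9% and 15.6%, against 33.7%. The letters were not taken to pair naive or GC libraries. With the letter block in the 9 activated libraries, where they pair, 6 members were higher in CD40 than in LPS and 9 in CpG than in LPS, both 0 without it. The block in 6 or 9 libraries was added after seeing the data. The cause of these shifts was not tested.

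Leaving out 1 library at a time, calls higher in GC ranged from 1 to 17 and lower from 0 to 12. The share of all genes called in either direction ranged from 25.3% to 37.1%. Calls higher ranged from 3 to 24 with CD40, 3 to 30 with CpG and 2 to 27 with LPS, and lower from 0 to 1 with CD40 and with LPS. The share of all genes called in either direction ranged from 25.6% to 36.5% with CD40, 24.9% to 36.3% with CpG and 25.0% to 36.7% with LPS.

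Differences in the effective number of heavy segments from naive cells turned over. For GC (1.13) the value was -0.162 with every V row, -1.07 with functional genes only and -1.13 as the inverse Simpson index. For CD40 (1.77) it was -0.233 with functional genes and -1.97 as inverse Simpson, for CpG (2.31) -2.17 and for LPS (3.21) -0.693 as inverse Simpson, and for CD40 against CpG (-0.541) 0.202. For kappa, CD40 (-0.0773) became 0.395 at a minimum sum of 1000 and 0.0591 with functional genes, and LPS (-0.265) became 0.162 at that minimum. With 1 library left out, the heavy difference ranged from -9.65 (without naive B) to 9.05 (without naive C) for GC, -9.01 to 9.69 for CD40, -8.47 to 10.2 for CpG and -7.58 to 11.1 for LPS, with the same libraries at the ends. The kappa difference ranged from -4.43 to 3.74, -5.34 to 2.82 and -4.61 to 3.55 for CD40, CpG and LPS, with the same libraries at the ends. The leading heavy share ranged from -2.68 to 1.24, -2.40 to 1.52 and -3.18 to 0.738 points, and the leading kappa share from -1.14 to 0.261, -1.01 to 0.397 and -1.25 to 0.154, lowest without naive C and highest without naive B. The V share difference of GC ranged from -0.0104 (without naive B) to 0.0562, and its lambda difference from -0.767 to 0.834.

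Between stimuli, in the order CD40 against CpG, CD40 against LPS and CpG against LPS, the V share difference ranged from -0.411 to 0.358, -0.227 to 0.373 and -0.226 to 0.425, its ends always without a C library. The lambda difference ranged from -2.37 to 0.946, -1.67 to 1.51 and -1.03 to 2.29, its ends always without a B library. Kappa effective numbers ranged from -0.282 to 2.40, -1.01 to 1.28 and -2.21 to 0.358, and the leading kappa share from -0.532 to 0.430, -0.360 to 0.643 and -0.323 to 0.779. Heavy effective numbers ranged from -1.51 to 0.590 for CD40 against CpG and -1.67 to 0.0726 for CpG against LPS, and the leading heavy share from -0.879 to 0.314 and, for CD40 against LPS, -0.0958 to 1.10. For letters B against C, kappa effective numbers ranged from -0.0797 to 0.815. The cause was not tested. Naive B had 36337 counts on member V segments and 108 members with a count, and LPS B had 39918 and 191.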
